A study of Rattus norvegicus with 138 samples.

Results

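The 8 genes described here, Acta2, Tagln, Myh11, Cnn1, Myl9, Actg2, Lmod1 and Myh10, encode contractile proteins of smooth muscle cells and of myofibroblasts. They were chosen by symbol, as 8 of 16181 gene symbols with values. The rule that names them uses no measured value, but they were chosen with earlier results of these data known. All 8 had a mean above 1 TPM (a length-corrected share of the transcripts of a library) in at least 1 group and were tested. After volumetric muscle loss (VML) in the rat tibialis anterior (TA) muscle, without repair or running, 6 of the 8 (Acta2, Tagln, Actg2, Cnn1, Myl9 and Myh10) rose against contralateral muscle by 7 days post injury (DPI), Lmod1 fell on each day sampled, and Myh11 was called at 14 DPI only. Scaled to the typical gene, Acta2, Tagln, Actg2 and Cnn1 were still called higher at 7 DPI in that comparison, Myl9 and Myh10 were called at 7 DPI against control but not against contralateral muscle, and Myh11 was called lower at 3 DPI. That Myh11 call came from 3 injured and 2 contralateral muscles and was not tried with muscles left out.

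Smooth muscle cells and myofibroblasts build their contractile apparatus from actin and myosin isoforms that differ from those of the skeletal muscle fiber. In healthy skeletal muscle these isoforms sit mainly in the walls of blood vessels, and during wound repair fibroblasts that turn into myofibroblasts take up part of the same program, with Acta2 as its best known marker. Many genes of the program are transcribed under serum response factor, which binds a DNA element called the CArG box, and transforming growth factor beta is a known inducer of the myofibroblast state.

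The animals were Lewis rats, inbred males of about 4 months per the study's methods, and the injury was made with a 6 mm biopsy punch in the middle of 1 TA muscle. Injured muscles were left without repair or were filled with autologous minced muscle graft (MMG), and were sampled with some of the opposite (contralateral) muscles at 3, 7, 14 and 28 DPI. The controls carried the labels Sham and day 0, and were 4 muscles, the left and right TA of 2 rats. Part of the operated rats were labelled as running, a label that comes with no distance or schedule.

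Without running, the injured no repair group held 3, 8, 4 and 4 muscles at 3, 7, 14 and 28 DPI, and the contralateral no repair group 2, 4, 2 and 2. The injured MMG group held 7, 8, 4 and 4 muscles and its contralateral group 2, 6, 2 and 2. Running groups held 2 to 8 muscles each. In all, 114 muscles of 78 rats in 31 groups entered 1 model. TPM sums to 1 fixed total in every library, and the number of reads in each library is not given in the sources used here. Of 129 libraries with a group, 13 with only 901 to 5712 symbols above 1 TPM were left out, against 7866 to 10948 in those kept. All control rats came from another numbered series of rats than all operated rats, so series and injury cannot be told apart in a comparison with control. The tissue label held, with Acta1, the skeletal actin, at 51986 TPM on average in control muscle.

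The Acta2 promoter is shown because Acta2 is the marker gene of the group and its sequence carries the element the family is known for. The window runs from 250 bases before to 50 bases after the RefSeq start of the gene, at chr1:241172454-241172753 on the minus strand of GRCr8, and reads 5′ to 3′, with capitals marking matches to the CArG box.

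Acta2 promoter: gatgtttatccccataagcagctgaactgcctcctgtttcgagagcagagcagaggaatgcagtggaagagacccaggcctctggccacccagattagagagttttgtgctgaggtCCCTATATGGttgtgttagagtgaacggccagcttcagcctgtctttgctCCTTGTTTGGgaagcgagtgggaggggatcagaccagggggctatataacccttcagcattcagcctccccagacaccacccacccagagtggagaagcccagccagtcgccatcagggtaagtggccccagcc

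A match was CC, then 6 letters of which at least 5 are A or T, then GG, a pattern searched on both strands. The 2 matches, CCCTATATGG and CCTTGTTTGG, began 134 and 84 bases before the start. Of 33469 rat promoters of the same 300 bases, 9.42% held at least 1 such match and 0.846% held 2 or more. RefSeq promoters were matched for 4 of the 8 genes. The window of Cnn1 held no match, which says only that these letters are not in its 300 bases. Those of Actg2 and Myh10 lie inside the annotated gene, away from its outer start, and were not read further. A match describes the sequence, and binding was not measured.

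Fold changes below are differences of log2(TPM + 1), a scale that understates the change of low genes such as Cnn1 and Actg2. Called genes are those that passed 0.05 by limma, after Benjamini-Hochberg adjustment over 11328 tested genes, with more than 1 log2 unit of change up or down. Muscles of an operated group came from different rats. In whole muscle, more cells of a type and more RNA per cell cannot be told apart, nor can fewer cells and less RNA.

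Acta2, the smooth muscle alpha-actin that bundles into the stress fibers of myofibroblasts, stood at 38.5, 32.4, 29.3 and 23.7 TPM in the 4 control muscles. Injured no repair muscles held 197, 241 and 102 TPM at 3 DPI, a lowest of 114, a median of 207 and a highest of 336 TPM at 7 DPI, then 78.6, 93.7, 107 and 94.9 TPM at 14 DPI and 106, 74.5, 69.7 and 82.6 TPM at 28 DPI. Contralateral no repair muscles held 42.9 and 44.5 TPM at 3 DPI, 41.0, 29.2, 36.9 and 31.9 TPM at 7 DPI, 23.2 and 24.7 TPM at 14 DPI, and 40.9 and 37.4 TPM at 28 DPI. Every injured muscle lay above every contralateral and control muscle on each day. Against contralateral muscle the log2 fold change was 1.93 ± 0.36 (SE), 2.46 ± 0.24, 1.92 ± 0.34 and 1.05 ± 0.34 from 3 to 28 DPI, called on all 4 days (limma adjusted p = 1.55e-06, 3.01e-16, 1.33e-06 and 0.00789). The call at 28 DPI rested on single muscles. Without injured replicate 1 its log2 fold change was 0.93, and without contralateral replicate 2 it was 0.99.

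Tagln, or SM22, an actin-binding protein of smooth muscle and an early marker of its differentiation, rose beside Acta2. Its control muscles held 33.3, 29.7, 34.8 and 20.7 TPM. Injured no repair muscles held 225, 301 and 136 TPM at 3 DPI, 145 to 483 TPM with a median of 286 TPM at 7 DPI, 103, 105, 133 and 124 TPM at 14 DPI, and 112, 75.6, 70.2 and 91.8 TPM at 28 DPI. Contralateral no repair muscles stayed between 26.8 and 47.2 TPM on the 4 days, so the groups did not overlap. The log2 fold change against contralateral muscle was 2.16 ± 0.33 (SE), 2.82 ± 0.22, 1.93 ± 0.32 and 1.24 ± 0.32 from 3 to 28 DPI, and Tagln was called on all 4 days (limma adjusted p = 2.3e-08, 2e-20, 2.94e-07 and 0.000924).

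**Figure D1:**
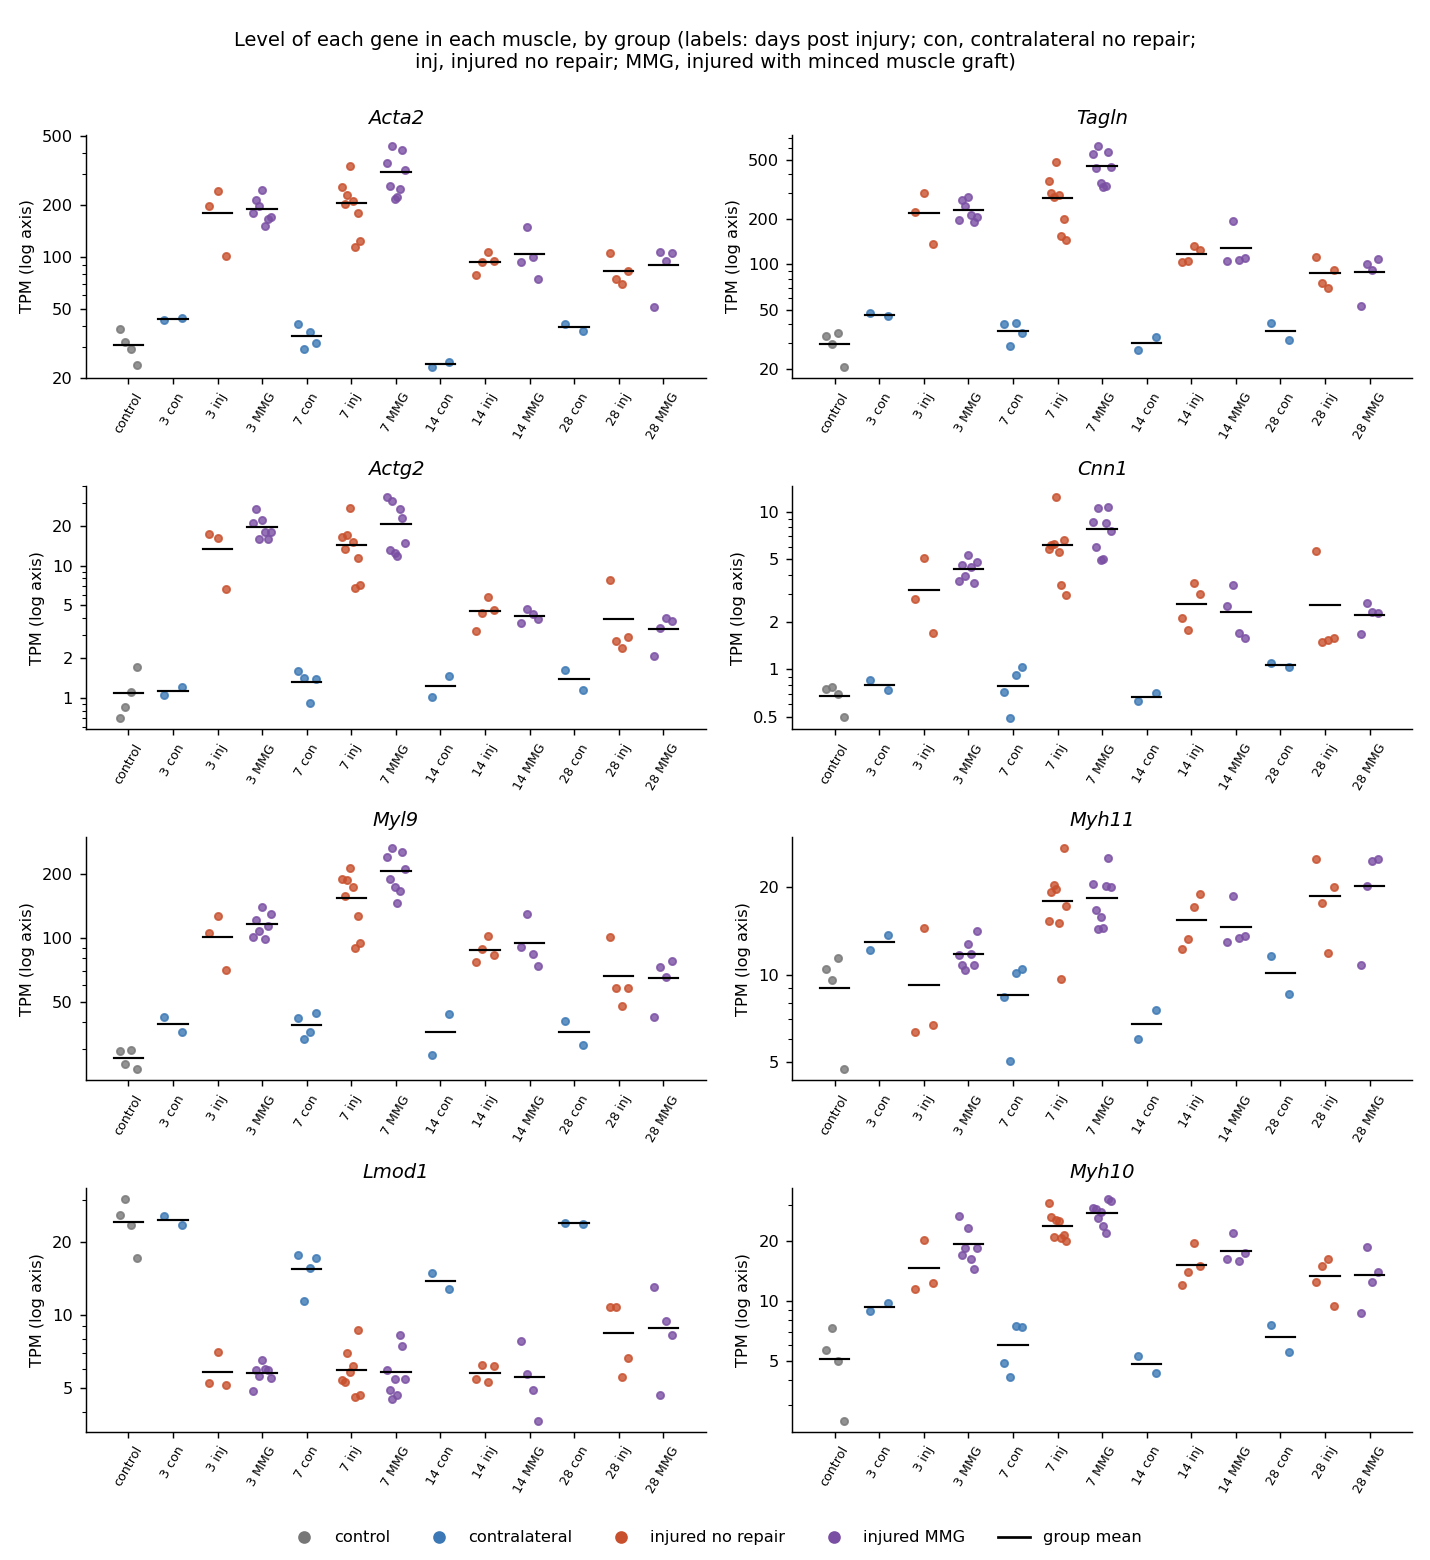
TPM of the 8 genes (log axis) in each control, contralateral no repair, injured no repair and injured MMG muscle of rats not labelled as running, by days post injury, with a black line at each group mean. Acta2 and Tagln of all injured muscles sit above the contralateral and control muscles of the plot, and Lmod1 sits below 15 TPM in injured muscle.

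Actg2, the gamma-actin typical of visceral smooth muscle, was near the lower limit in uninjured muscle, with 0.7, 0.85, 1.11 and 1.71 TPM in the control group. It reached 17.5, 16.3 and 6.65 TPM at 3 DPI and 6.81 to 27.4 TPM (median 14.2) at 7 DPI without repair. By 14 DPI it was at 3.2, 4.39, 5.78 and 4.65 TPM, and at 28 DPI at 7.8, 2.67, 2.38 and 2.88 TPM, where replicate 1 stood apart. Contralateral no repair muscles held 0.91 to 1.62 TPM, below every injured muscle. The log2 fold changes against contralateral muscle were 2.66 ± 0.45 (SE), 2.62 ± 0.30, 1.29 ± 0.43 and 0.94 ± 0.43, of which the first 3 were called (limma adjusted p = 2.05e-07, 4.95e-13, 0.00691 and 0.0592). Without contralateral replicate 1 the adjusted p at 14 DPI was 0.0722. Against control muscle Actg2 was called on all 4 days, and at 28 DPI the log2 fold change of 1.14 became 0.82 without injured replicate 1.

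Cnn1, or calponin, a filament protein that restrains actomyosin and marks late smooth muscle differentiation, was the lowest of the 8, at 0.75, 0.77, 0.7 and 0.5 TPM in control muscle. Injured no repair muscles held 2.82, 5.1 and 1.7 TPM at 3 DPI and 2.95 to 12.4 TPM at 7 DPI, against 0.74 to 0.86 TPM and 0.49 to 1.03 TPM in contralateral muscle. At 14 DPI they held 2.12, 1.77, 3.54 and 3.0 TPM, and at 28 DPI 5.62, 1.5, 1.54 and 1.58 TPM. Every injured muscle was above its contralateral group, whose highest value at 28 DPI was 1.1 TPM. The log2 fold changes against contralateral muscle were 1.15 ± 0.36 (SE), 1.92 ± 0.24, 1.08 ± 0.34 and 0.64 ± 0.34 (limma adjusted p = 0.00316, 9.63e-12, 0.00419 and 0.106), called at 3, 7 and 14 DPI. The call at 3 DPI was lost without injured replicate 2 (0.84 against contralateral and 0.94 against control muscle), and that at 14 DPI without injured replicate 3 (0.96 against either).

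Among the myosin subunits, Myl9 encodes the regulatory light chain whose phosphorylation starts smooth muscle contraction. Control muscles held 29.4, 25.6, 29.7 and 24.1 TPM. Injured no repair muscles held 106, 126 and 70.5 TPM at 3 DPI, 89.7 to 213 TPM (median 165) at 7 DPI, 76.8, 88.7, 102 and 82.8 TPM at 14 DPI, and 100.4, 58.3, 47.8 and 58.4 TPM at 28 DPI. Contralateral no repair muscles held 28.0 to 44.5 TPM, below each of these. The log2 fold changes against contralateral muscle were 1.30 ± 0.29 (SE), 1.90 ± 0.20, 1.29 ± 0.28 and 0.81 ± 0.28 (limma adjusted p = 5.8e-05, 5.83e-15, 5.3e-05 and 0.0124), called up to 14 DPI. At 14 DPI the value was 0.97 without contralateral replicate 1. Against control muscle Myl9 was called on each day, and the value of 1.2 at 28 DPI was 0.98 without injured replicate 1.

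Myh10, the heavy chain of non-muscle myosin IIB, is not restricted to smooth muscle and serves contractility and migration in many cell types. It was at 5.64, 7.26, 5.0 and 2.51 TPM in control muscle. At 3 DPI injured no repair muscles held 11.4, 20.2 and 12.3 TPM and contralateral muscles 8.84 and 9.77 TPM, close to each other though not overlapping. At 7 DPI the injured range was 19.8 to 30.9 TPM against 4.17 to 7.5 TPM. At 14 DPI injured muscles held 11.96, 14.0, 19.5 and 14.9 TPM and contralateral muscles 5.27 and 4.36 TPM, and at 28 DPI 12.3, 15.0, 16.2 and 9.44 TPM against 7.57 and 5.53 TPM. The log2 fold change against contralateral muscle was 0.56 ± 0.24 (SE), 1.85 ± 0.16, 1.45 ± 0.23 and 0.90 ± 0.23 from 3 to 28 DPI. Only the values at 7 and 14 DPI were called (limma adjusted p = 4.25e-18 and 1.41e-07), since the other 2 passed the p threshold (0.0351 and 0.000914) but not the fold change. Against control muscle Myh10 was called on all 4 days, with log2 fold changes from 1.26 to 2.07.

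Myh11, the smooth muscle myosin heavy chain and the member most specific to mature smooth muscle, went its own way. Control muscles held 10.4, 9.58, 11.4 and 4.71 TPM. At 3 DPI the injured no repair muscles held 6.35, 14.5 and 6.72 TPM and the contralateral ones 12.2 and 13.7 TPM, so that 2 of 3 injured muscles were below and 1 above. At 7 DPI injured muscles ran from 9.62 to 27.2 TPM (median 18.3) and contralateral ones from 5.04 to 10.4 TPM, with an overlap between rats, while in the 4 rats with both muscles the injured one was higher in each. At 14 DPI injured muscles held 12.3, 13.2, 17.1 and 18.9 TPM against 5.98 and 7.53 TPM, and at 28 DPI 25.0, 17.7, 11.8 and 20.0 TPM against 11.6 and 8.6 TPM, with no overlap on either day. The log2 fold changes against contralateral muscle were -0.54 ± 0.32 (SE), 1.00 ± 0.22, 1.07 ± 0.31 and 0.79 ± 0.31, and only that at 14 DPI was called (limma adjusted p = 0.127, 2.15e-05, 0.00202 and 0.0275). That call was lost without contralateral replicate 1 (0.92) or injured replicate 4 (0.97). Against control muscle Myh11 was not called on any day, with log2 fold changes of -0.00, 0.93, 0.75 and 0.98, and its level in injured muscle had no call between neighbouring days.

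Lmod1, leiomodin of smooth muscle, is a protein that starts new actin filaments. In TPM as deposited it was the only member called lower in injured than in contralateral or control muscle. Control muscles held 25.9, 30.0, 23.5 and 17.2 TPM, a TPM level close to that of Myl9 and Acta2. Injured no repair muscles held 5.25, 7.06 and 5.18 TPM at 3 DPI, 4.61 to 8.73 TPM (median 5.61) at 7 DPI, 5.45, 6.25, 5.29 and 6.15 TPM at 14 DPI, and 10.8, 10.9, 5.57 and 6.65 TPM at 28 DPI. The contralateral no repair muscles held 25.7 and 23.7 TPM at 3 DPI, 17.8, 11.4, 15.6 and 17.3 TPM at 7 DPI, 14.9 and 12.9 TPM at 14 DPI, and 24.1 and 23.7 TPM at 28 DPI. No injured muscle reached the lowest contralateral value of its day. The log2 fold changes against contralateral muscle were -1.92 ± 0.24 (SE), -1.25 ± 0.16, -1.13 ± 0.23 and -1.44 ± 0.23 (limma adjusted p = 2.68e-11, 2.71e-11, 1.51e-05 and 2.5e-07). No single muscle left out ended a Lmod1 call. Of 11328 tested genes, 5 were called lower than contralateral muscle on all 4 days, and Lmod1 was 1 of them, while 1213 genes were called higher on all 4 days, Acta2 and Tagln among them.

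Counted over the members, 5, 6, 7 and 2 of 8 were called higher than contralateral muscle at 3, 7, 14 and 28 DPI, where 32.3%, 45.3%, 20.9% and 13.1% of all tested genes were. Calls lower numbered 1 of 8 on each day, Lmod1, where 5.92%, 2.01%, 0.168% and 0.212% of tested genes were called lower. Without contralateral replicate 1 the calls at 14 DPI numbered 5 instead of 8. Against control muscle 6, 6, 6 and 5 of 8 were called higher, beside 48.3%, 45.6%, 25% and 21.1% of all tested genes, and 1 of 8 lower, again Lmod1, beside 4.24%, 2.42%, 0.547% and 0.212%. The median of the 8 log2 fold changes against contralateral muscle was 1.22, 1.91, 1.29 and 0.86, and that of all tested genes 0.54, 0.91, 0.50 and 0.38.

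The median gene thus lay above 0, and the sizes of the changes and many calls moved with the scaling, while the sign of a member's log2 fold change against contralateral or control muscle turned for Myh11 at 7 DPI alone. With median-of-ratios size factors computed on TPM, the median of all tested genes against contralateral muscle became 0.06, 0.08, 0.01 and 0.03, and against control muscle it moved from 0.96, 0.91, 0.53 and 0.52 to 0.11, 0.11, 0.04 and 0.06. The share of calls that were higher moved as well, against control muscle from 91.9%, 95.0%, 97.9% and 99.0% on the 4 days to 59.1%, 60.9%, 73.2% and 79.3%, and against contralateral muscle from 84.5%, 95.8%, 99.2% and 98.4% to 60.1%, 59.3%, 73.5% and 82.8%. Members called against contralateral muscle then numbered 5, 5, 3 and 1 instead of 6, 7, 8 and 3, and against control muscle 5, 7, 2 and 1 instead of 7, 7, 7 and 6. The share of all tested genes called with size factors is not given, so counts of members on that scale, here or below, cannot be set against it. Relative to the typical gene, Lmod1 fell further, with log2 fold changes of -2.43, -2.25, -1.77 and -1.91 against contralateral muscle, all called, and was then 1 of 121 genes called lower on all 4 days.

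On that scale Acta2 kept its calls against contralateral muscle at 3, 7 and 14 DPI, with log2 fold changes of 1.35, 1.39 and 1.27, as did Tagln with 1.58, 1.74 and 1.28. Actg2 was called at 3 and 7 DPI (2.19 and 1.82) and Cnn1 only at 7 DPI (1.27). Myl9 and Myh10 were not called against contralateral muscle on any day, with at most 0.82 and 0.89, but at 7 DPI they were against control muscle (1.33 and 1.12) and in running rats against their contralateral group (1.11 and 1.33), as was Myl9 with MMG (1.38). Myh11 was called lower at 3 DPI (-1.07 against contralateral and -1.04 against control muscle), lay at -0.01 and -0.06 at 7 DPI and at 0.47 against contralateral muscle at 14 DPI, where its call ended. Muscles were left out in turn only in TPM as deposited, so calls with size factors were not checked in that way. At 28 DPI none of the 8 but Lmod1 was called, with 0.59 for Acta2 and 0.78 for Tagln.

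**Figure D2:**
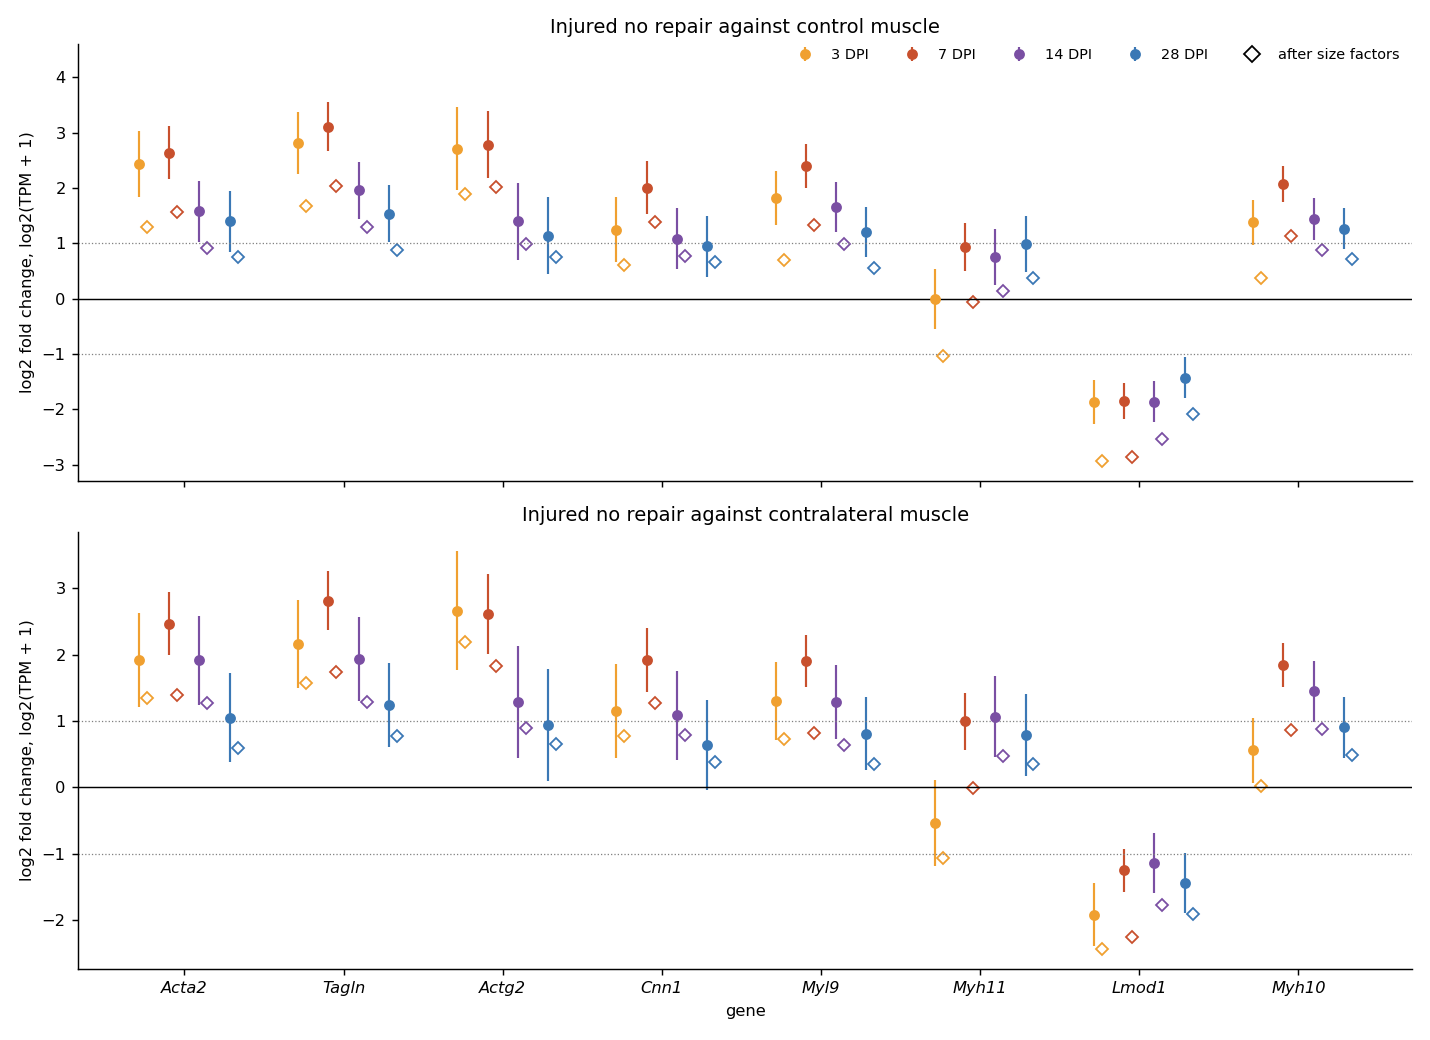
Log2 fold change of injured no repair muscle against control (top) and contralateral muscle (bottom), with filled points and bars for TPM as deposited and its 95% interval, open diamonds for the value after size factors, and dotted lines at the fold change that a call needs. Lmod1 is below -1 throughout, and the diamonds of Myh11 move from below 0 at 3 DPI to above 0 at 28 DPI.

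Each member was also set against Myh11 within the same muscle, as the log2 ratio of TPM + 1. The added 1 TPM weighs on genes near that level, Cnn1 and Actg2 above all, so the ratio of plain TPM, which library scaling does not move, is given beside it, an alternative added after the values had been seen. At 7 DPI the ratio of TPM + 1 was higher in the 8 injured than in the 4 contralateral no repair muscles by 1.47 for Acta2, 1.82 for Tagln and 1.62 for Actg2, without overlap (two-sided exact permutation p = 0.00404, the smallest possible with these numbers, adjusted p = 0.0283 over 28 ratios). Cnn1 and Myh10 gained 0.92 and 0.85 on Myh11 (exact permutation p = 0.00808, adjusted p = 0.0377) and Myl9 gained 0.90 (exact permutation p = 0.0202, adjusted p = 0.0808). Lmod1 lost 2.25 (exact permutation p = 0.00404, adjusted p = 0.0283), from 0.58 to 1.04 in contralateral to -1.69 to -0.92 in injured muscle. In plain TPM the differences at 7 DPI were 1.41 for Acta2, 1.76 for Tagln, 2.25 for Actg2, 1.81 for Cnn1, 0.94 for Myh10, 0.84 for Myl9 and -2.47 for Lmod1, and the same 6 of 7 had an adjusted p under 0.05. The permutations take muscles as separate, although each contralateral muscle shares its rat with an injured one.

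On the other days the design could not pass 0.05, since the smallest exact p was 0.2 at 3 DPI and 0.133 at 14 and 28 DPI, and the differences are given as values in plain TPM. At 3 DPI they were 2.55 for Acta2, 2.78 for Tagln, 2.47 for Cnn1 and 4.06 for Actg2. By 14 DPI these were 0.79, 0.79, 0.74 and 0.69, and by 28 DPI 0.22, 0.41, 0.14 and 0.50. On the 3 days Myl9 differed by 1.93, 0.14 and -0.02, and Myh10 by 1.21, 0.46 and 0.16. With the added 1 TPM, Cnn1 differed by 1.69, 0.02 and -0.15, and Actg2 by 3.20, 0.22 and 0.15. The Lmod1 difference was -1.49, -2.44 and -2.41 on those 3 days. For the ratios of TPM + 1 at 7 DPI, leaving out any 1 contralateral muscle left 0 with an adjusted p under 0.05, with fewer splits available. Without injured replicates 1 to 6 in turn 4 stayed under 0.05, without replicate 7 the count was 7 and without replicate 8 it was 5.

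**Figure D3:**
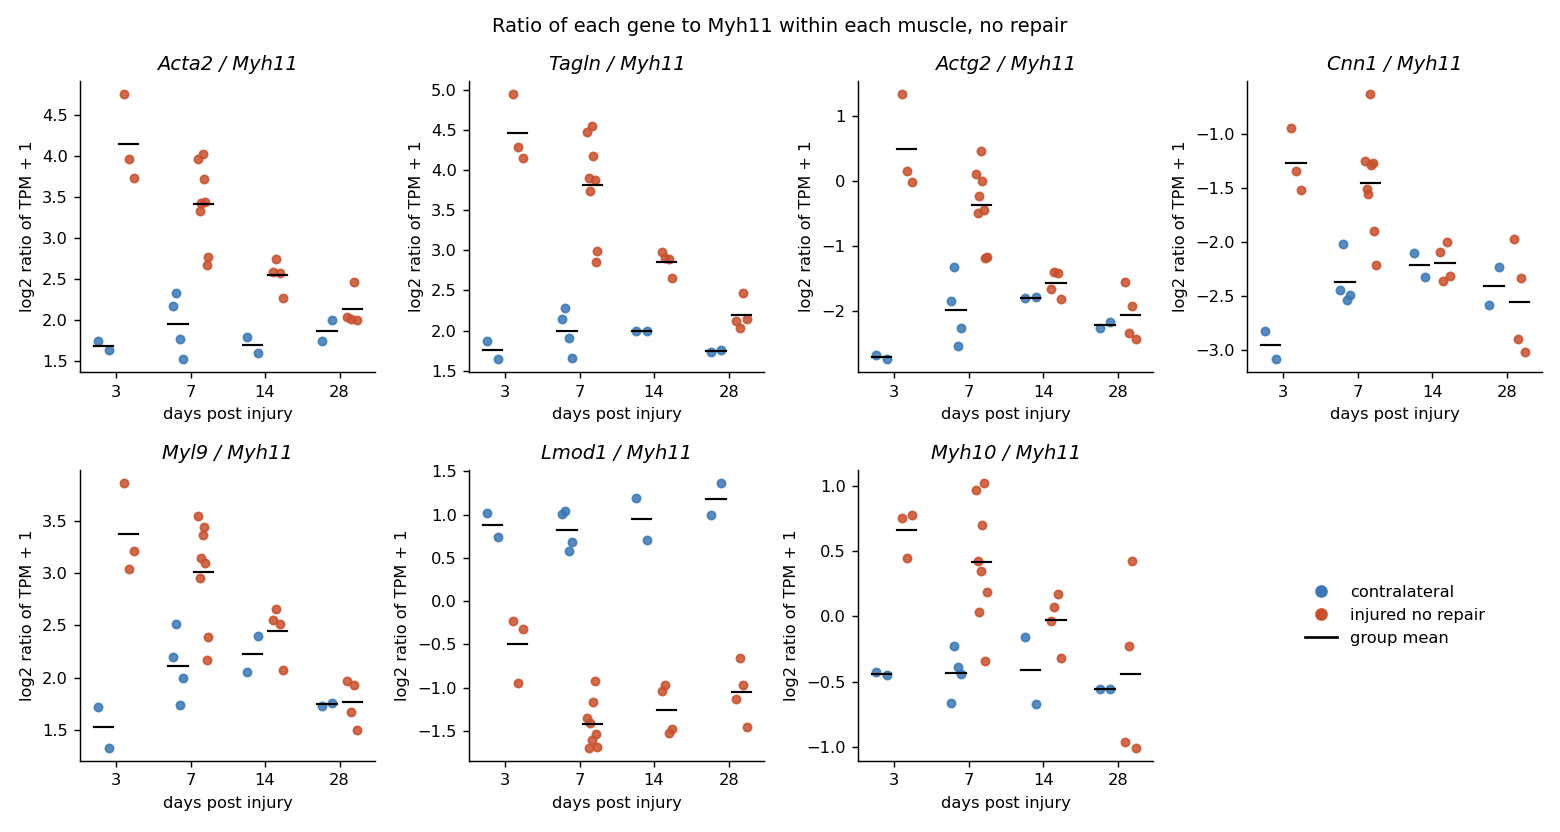
Log2 ratio of TPM + 1 of each of 7 genes to Myh11 in each contralateral and injured no repair muscle, by days post injury, with black lines at the group means. The injured muscles start far above the contralateral ones at 3 DPI for Acta2, Tagln and Actg2 and come close to them at 28 DPI, while those of Lmod1 stay below on each day. The level of Myh11 changed over these days as well.

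Pooling both arms gave 8 or more injured and 4 or more contralateral muscles on each day, an alternative also added after values were seen. Splits were drawn at 7 DPI and enumerated on the other days. Of the 28 ratios, 23 then had an adjusted p under 0.05 with the added 1 TPM and 24 in plain TPM. In plain TPM the Lmod1 ratio differed by -1.88, -2.34, -2.60 and -2.54 from 3 to 28 DPI, and the Acta2 ratio by 2.37, 1.95, 0.91 and 0.19. At 28 DPI Acta2, Cnn1, Myl9 and Myh10 did not pass in plain TPM (differences of 0.19, 0.50, -0.12 and -0.01), while Tagln (0.32) and Actg2 (0.57) did. The added 1 TPM decided some of these, since with it Acta2 passed at 28 DPI (0.24), Actg2 did not (0.08), and Cnn1 did not at 14 DPI (0.01 against 0.58 in plain TPM) and turned sign at 28 DPI (-0.11).

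Between days, the no repair injured muscle had no member called from 3 to 7 DPI, where 7.34% of all tested genes were called, or from 14 to 28 DPI, where 0.459% were. The unadjusted p was under 0.05 for 4 of 8 members in the first of these and for 1 in the second, close to the 47.3% and 13.8% of all tested genes. Without replicate 2 of 3 DPI the first comparison had 2 calls, and without replicate 6 of 7 DPI it had 1. From 7 to 14 DPI 3 of 8 were called lower, beside 6.1% of all tested genes. These were Actg2 (-1.39 ± 0.30, SE), Tagln (-1.15 ± 0.22) and Acta2 (-1.06 ± 0.24), with limma adjusted p = 5.09e-05, 9.24e-06 and 8.62e-05. The Acta2 call was lost without replicate 4 of 7 DPI (-0.95) or replicate 1 of 14 DPI (-0.98), and with size factors Actg2 alone was called (-1.03). The median of all tested genes between these days was -0.40, and -0.06 after size factors, and the share of calls that were higher went from 10.6% to 61.1%.

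Between contralateral and control muscle none of the 8 was called on any day, where 6.43%, 0.803%, 0.715% and 0.185% of tested genes were at 3, 7, 14 and 28 DPI. The values furthest from 0 were Myh10 at 3 DPI (0.82, limma adjusted p = 0.00282), Lmod1 at 14 DPI (-0.73, adjusted p = 0.0576), Tagln at 3 DPI (0.65, adjusted p = 0.0741) and Lmod1 at 7 DPI (-0.60, adjusted p = 0.0321). The unadjusted p was under 0.05 for 2, 2, 1 and 0 of 8 members on the 4 days, beside 60.4%, 19.8%, 14.7% and 11.6% of all tested genes. Contralateral muscle at 3 DPI was not like control muscle in other cell type markers, with 14 of 16 matrix genes and 10 of 11 leukocyte markers called higher, and their part in the Myh10 value was not tested. Both comparisons with control muscle share the same 4 muscles. With the low-complexity libraries kept, 5 members were called lower in contralateral muscle at 7 DPI (Acta2, Tagln, Myh11, Myl9 and Lmod1), the group to which 2 of those libraries belong.

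With the graft, Acta2 and Tagln were again high and Lmod1 low in injured muscle. Injured MMG muscles held 150 to 242 TPM of Acta2 at 3 DPI, 217 to 437 TPM at 7 DPI, 93.3, 148, 100.2 and 74.7 TPM at 14 DPI, and 51.2, 107, 94.2 and 105 TPM at 28 DPI. Tagln held 193 to 280 TPM, 327 to 618 TPM, 105 to 194 TPM and 52.5 to 109 TPM on these days. Lmod1 held 4.89 to 6.55 TPM, 4.51 to 8.27 TPM, 3.68 to 7.8 TPM and 4.67 to 13.1 TPM, against 11.6 TPM or more in every contralateral MMG muscle. At 28 DPI 1 injured muscle, replicate 1, was the lowest for Acta2 and the highest for Lmod1.

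Against contralateral MMG muscle 5, 6, 5 and 5 of 8 were called higher, where 37.2%, 42.9%, 25.6% and 18.8% of tested genes were, and Lmod1 was the 1 member called lower on each day, where 6.8%, 3.35%, 0.53% and 0.3% were. Lmod1 changed by -2.10 ± 0.21 (SE), -1.40 ± 0.14, -1.80 ± 0.23 and -1.36 ± 0.23, and Tagln by 2.10 ± 0.29, 3.43 ± 0.20, 1.79 ± 0.32 and 1.41 ± 0.32. Myh11 was called at 28 DPI (1.12 ± 0.31, limma adjusted p = 0.00134), a call lost without injured replicate 4 (0.995 on the log2 scale). Actg2 was called at 14 and 28 DPI (1.30 and 1.13) and Cnn1 at 28 DPI (1.05). The Actg2 values were 0.96 without contralateral replicate 2 at 14 DPI and 0.85 without contralateral replicate 1 at 28 DPI, and the Cnn1 value was 0.90 without contralateral replicate 2 or 0.99 without injured replicate 2. With size factors 5, 6, 3 and 1 members were called, Lmod1 on each day (-2.72, -2.26, -2.48 and -1.93), and the share of all calls that were higher went from 84.6%, 92.7%, 97.97% and 98.4% to 57.4%, 60.8%, 67.7% and 74.8%. These counts, too, have no share of all tested genes beside them.

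Injured MMG muscle was compared with injured no repair muscle, and none of the 8 was called on any day. A lack of calls past 1 log2 unit does not show that the graft had no effect on these genes. Calls over all tested genes were as rare, at 0.00883%, 0.0883%, 0.0265% and 0% from 3 to 28 DPI. The values furthest from 0 came at 7 DPI, where Tagln was higher with the graft by 0.77 ± 0.18 (SE, 95% interval 0.41 to 1.14, limma adjusted p = 0.00566) and Acta2 by 0.60 ± 0.20 (0.22 to 0.99, adjusted p = 0.0392), both past the p threshold and short of the fold change. Tagln ranged from 327 to 618 TPM with the graft and 145 to 483 TPM without, an overlap. The unadjusted p fell under 0.05 for 1, 4, 0 and 0 of 8 members on the 4 days and for 17.3%, 27%, 5.23% and 1.24% of all tested genes. Lmod1 differed by -0.00, -0.03, -0.09 and 0.04, with intervals within -0.46 and 0.41. With the low-complexity libraries kept, Tagln was called at 7 DPI. The injury response itself, injured minus contralateral, differed between MMG and no repair for none of the 8 (0 called by limma, beside 0% of all tested genes, differences from -0.67 to 0.61). Its unadjusted p was under 0.05 for 0, 1, 1 and 0 members, beside 2.09%, 11.5%, 0.883% and 0.556% of all tested genes.

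**Figure D4:**
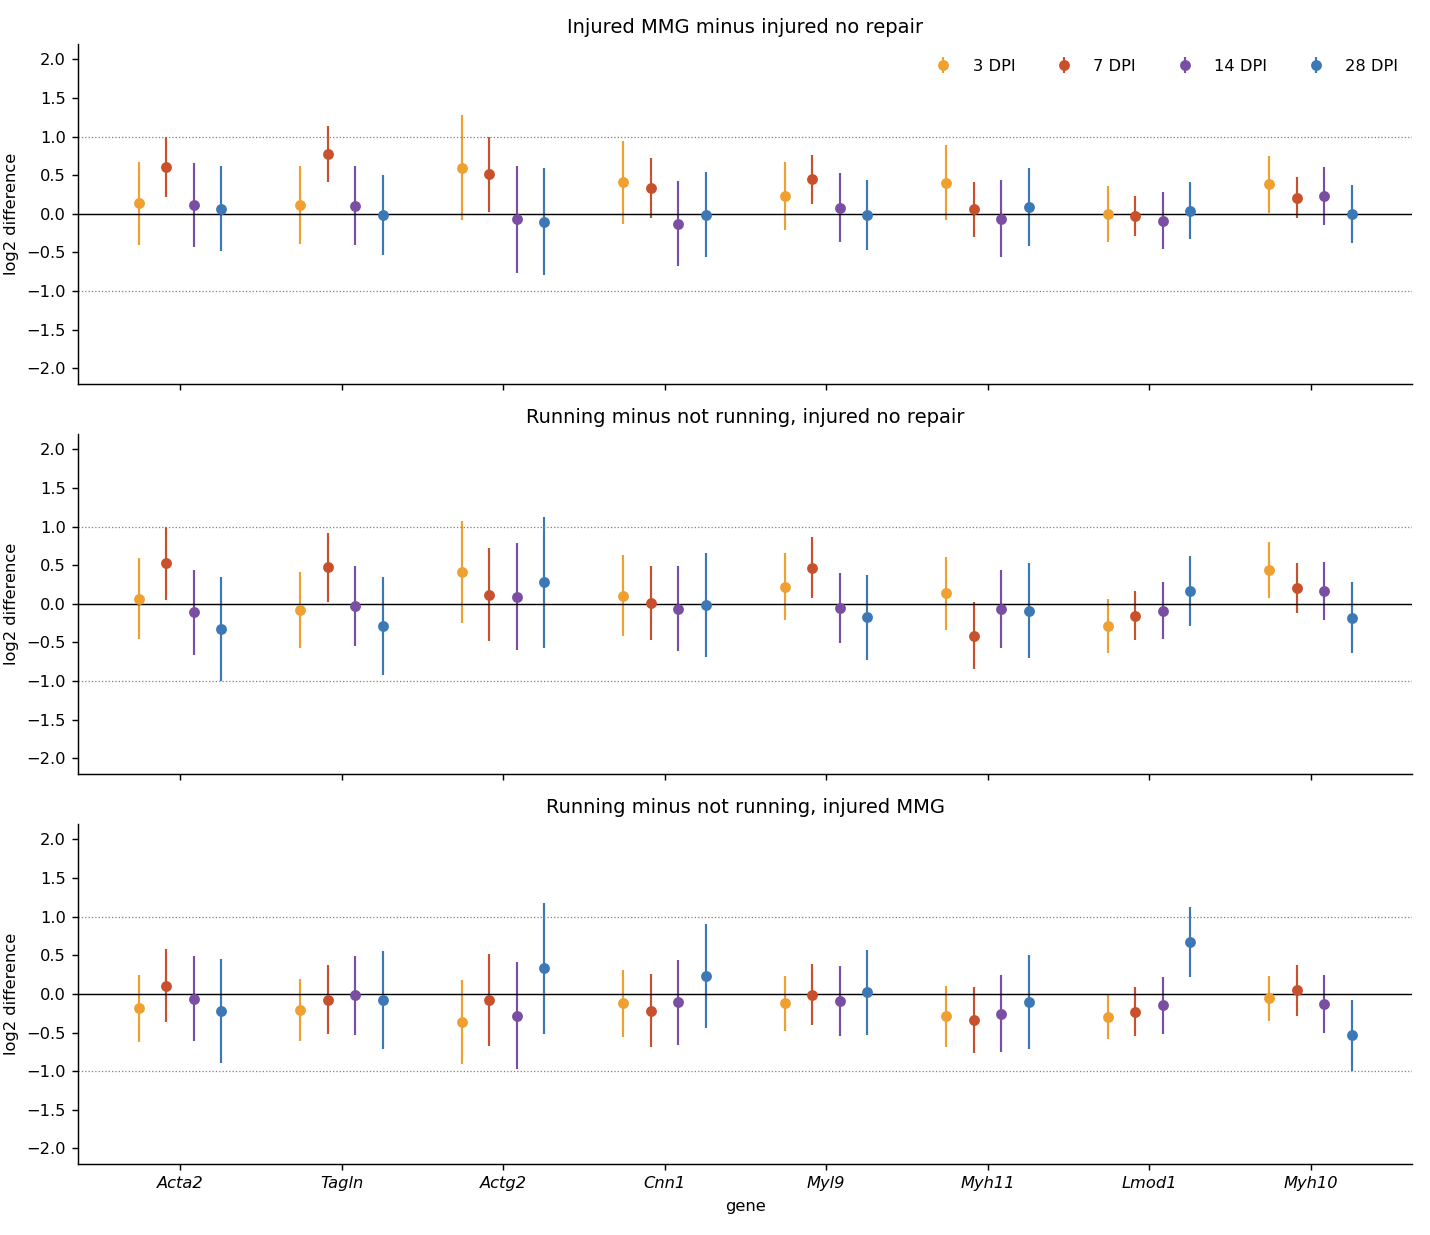
Difference in log2(TPM + 1) of each gene, with 95% intervals, for injured MMG minus no repair (top), running minus not running without repair (middle) and running minus not running with MMG (bottom), by days post injury, with dotted lines at the fold change that a call needs. All points lie within 1 of 0, the furthest being Tagln at 7 DPI in the top panel, at 0.77.

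Running was compared within each arm, and none of the 8 was called on any day in either arm. Without repair, running rats held 142 to 288 TPM of Acta2 at 3 DPI, 163 to 489 TPM at 7 DPI, 72.1 to 118 TPM at 14 DPI, and 64.1 and 66.8 TPM at 28 DPI, ranges that overlapped those of the other rats up to 14 DPI and lay below them at 28 DPI. The share of tested genes called was 0.0441%, 0%, 0.0177% and 0.0177% without repair and 0% on each day with MMG. Without repair 1, 3, 0 and 0 of 8 members had an unadjusted p under 0.05, beside 14.5%, 21.3%, 9.96% and 3.79% of all tested genes. With MMG it was 1, 0, 0 and 2 members, beside 5.24%, 1.83%, 0.627% and 8.4%. The value furthest from 0 was Lmod1 with MMG at 28 DPI, at 13.5 and 14.5 TPM in 2 running rats and 4.67 to 13.1 TPM in 4 others (0.67 ± 0.23, SE, limma adjusted p = 0.309). In running rats the injured no repair muscle had 6, 7 and 4 of 8 called higher than its contralateral group at 3, 7 and 14 DPI, where 33.7%, 39.9% and 25.7% of tested genes were. Lmod1 was called lower on each of these days (-1.39, -1.49 and -1.69), where 6.48%, 3.2% and 0.671% were. Of those calls, Myh11 at 7 DPI (1.06) fell to 0.94 without contralateral replicate 2 and to 0.994 without injured replicate 1, and Actg2 at 14 DPI (1.2) to 0.77 without contralateral replicate 1. With size factors 4, 7 and 1 members were called, Lmod1 on each day, again without a share of all tested genes to set beside them. The share of all calls that were higher went from 83.9%, 92.6% and 97.5% to 58.3%, 60.4% and 65.6%.

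Over all 114 muscles, running rats included, the levels parted by side. Of 76 injured muscles, 75 lay above every one of the 38 uninjured muscles for Acta2 and for Tagln, 72 for Actg2 and Myh10, 68 for Myl9, 62 for Cnn1 and 26 for Myh11, while 71 lay below every uninjured muscle for Lmod1. These are counts in TPM as deposited, in which the median tested gene was also higher in injured muscle. How many of all tested genes part in this way was not counted, so the counts only describe these genes. Lmod1 ran from 2.76 to 14.5 TPM (median 5.42) in injured and from 10.8 to 30.0 TPM (median 18.4) in uninjured muscle. Acta2 ran from 51.2 to 533 TPM (median 161) and from 20.1 to 56.8 TPM (median 33.3).

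**Figure D5:**
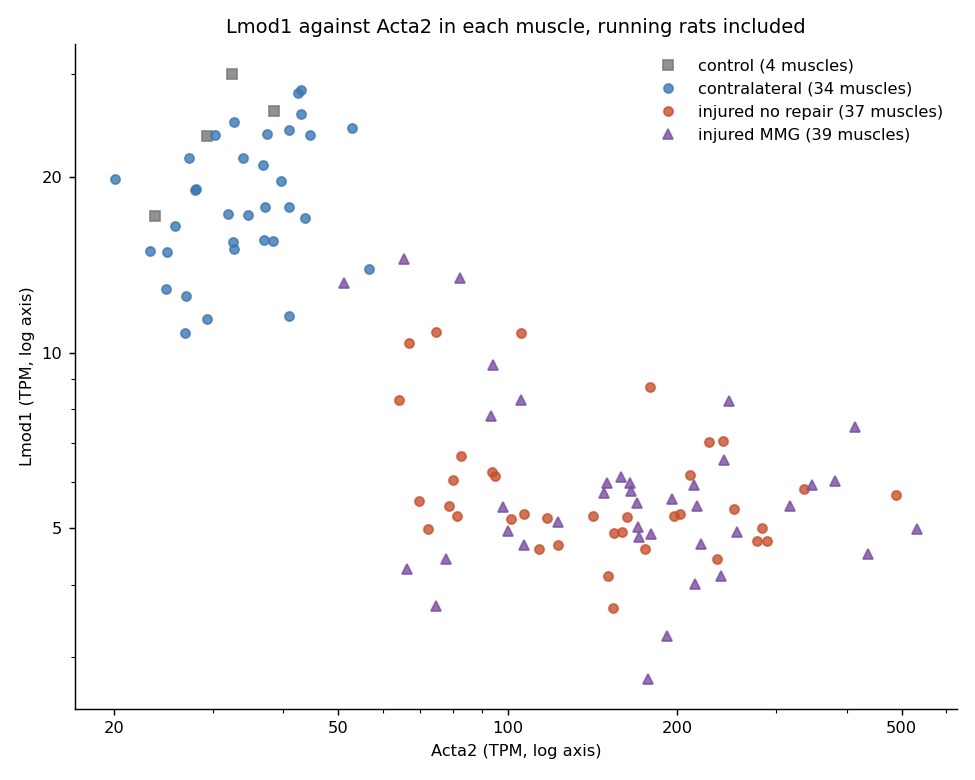
Lmod1 against Acta2 in TPM (both axes log) in each of 114 muscles, running rats included, by control, contralateral, injured no repair and injured MMG. Injured muscles lie to the right of 51 TPM of Acta2 and below 15 TPM of Lmod1, and uninjured muscles to the left of 57 TPM and above 10 TPM.

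Within groups the members varied together, as a description over 114 muscles that share a library scale. Deviations from the group means correlated at r = 0.92 for Acta2 and Tagln, 0.88 for Tagln and Myl9 and 0.81 for Cnn1 and Actg2. Myh11 correlated with Acta2 at 0.49 and with Cnn1 at 0.63. Lmod1 turned sign between the levels of description. Over the 31 group means its r was from -0.88 to -0.42 with the other 7 members, and within groups it was positive with all 7, from 0.08 with Myh10 to 0.46 with Myh11.

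By the same measure over 31 group means, the tested genes most like Acta2 were Tagln, Plekhg2 and Pear1 (r = 0.99 each), and those most like Tagln were Acta2, Fzd2 and Igsf3. Cnn1 was closest to Slit2, Tagln and Acta2 (r = 0.97 each), Myl9 to Tagln, Grin2d and Emid1, Actg2 to Ap1s3, Ltbp2 and Fblim1, and Myh10 to Tanc1, Nlgn2 and Ston1. The nearest genes of Myh11, Pcp4l1, Lamb2 and Ntrk3, reached only r = 0.93 to 0.91. Lmod1 was closest to Sbk2, Stard10 and Nipal2, at r = 0.95 to 0.96.

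Other contractile and regulatory genes of smooth muscle had calls in both directions at 3 and 7 DPI and only higher ones later. Of 26 genes with values, 10, 16, 12 and 9 were called higher than contralateral no repair muscle from 3 to 28 DPI. Calls lower numbered 3, 1, 0 and 0. Of all tested genes 32.3%, 45.3%, 20.9% and 13.1% were called higher and 5.92%, 2.01%, 0.168% and 0.212% lower. The calls higher in the lists that follow are from the same comparison, with the same shares over all genes. At 7 DPI the highest of those called were Csrp2 (4.32), a LIM protein that works with serum response factor, and Fhl2 (3.60), another LIM protein, and the lowest were Tpm1 (-1.28), a tropomyosin also made in skeletal fibers, and Smtn (1.11), or smoothelin. Myocd, the coactivator that drives the smooth muscle program, was at 1.1 TPM in injured and 0.5 TPM in contralateral muscle on that day and was not called (0.50), and neither was Srf, serum response factor itself (-0.14). Both were singled out for their role after values had been seen. The median of the list at 7 DPI was 1.23, and 0.44 after size factors.

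Non-muscle actomyosin genes had 15, 15, 13 and 8 of 17 called higher and none lower, with a median of 2.13 at 7 DPI (1.13 after size factors). At 7 DPI they ran from Cnn3 (3.43), an acidic calponin of non-muscle cells, and Cfl1 (2.92), or cofilin, down to Rock1 (1.52), a kinase of myosin light chain phosphatase, and Pfn1 (1.37), or profilin, among those called. Genes of transforming growth factor beta signalling had 7, 11, 9 and 8 of 14 called higher and none lower, with a median of 1.81 at 7 DPI (0.86 after size factors). Thbs1 (3.77), or thrombospondin, was among the highest of those called at 7 DPI, and Tgfb3 (1.5) and Smad2 (1.17) were the lowest.

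Markers of several cell types moved on the same days, and their part in the values of the 8 genes was not tested. The 16 matrix genes of fibroblasts and myofibroblasts summed to 8232 to 24207 TPM in injured and 323 to 577 TPM in contralateral no repair muscle at 7 DPI, and 15, 16, 16 and 16 of 16 were called higher from 3 to 28 DPI. Their called range at 7 DPI was from Cthrc1 (7.30) and Postn (6.95) to Pdgfra (2.98) and Dcn (2.50). The 12 pericyte and mural cell markers summed to 408 to 689 TPM against 166 to 266 TPM at 7 DPI. Of these 12, 3, 8, 3 and 2 were called higher and 1, 0, 0 and 0 lower. Of all tested genes 32.3%, 45.3%, 20.9% and 13.1% were called higher and 5.92%, 2.01%, 0.168% and 0.212% lower. At 7 DPI Anpep (3.58) and Pdgfrb (2.76) were the highest of those called and Ndufa4l2 (1.16) and Rgs5 (1.09) the lowest. After size factors the median of the mural list at 7 DPI was 0.24 and that of the matrix list 4.12.

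Endothelial markers summed to 353 to 566 TPM in injured and 122 to 186 TPM in contralateral muscle at 7 DPI, with 3, 9, 5 and 3 of 12 called higher from 3 to 28 DPI, beside the same shares of all tested genes. Their median at 7 DPI was 1.29, and 0.24 after size factors. Cd34 (2.18) and Tie1 (1.68) led those called at 7 DPI, and Tek (1.14) and Emcn (1.07) closed the list. Leukocyte markers summed to 5111 to 6857 TPM in injured no repair muscle at 3 DPI and 731 to 3441 TPM at 7 DPI, against 60.1 to 82.8 TPM in contralateral muscle at 7 DPI, with 11, 11, 11 and 10 of 11 called higher. At 7 DPI they ran from Lyz2 (4.92) and Cd68 (4.72) to Ptprc (3.05) and Cd14 (2.98). No gene of the lists was at 0 in every muscle of a group.

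Skeletal muscle fiber markers were lower beside Lmod1. They summed to 47152 to 64274 TPM in injured no repair muscle at 3 DPI, 70552 to 151208 TPM at 7 DPI and 199672 to 215346 TPM at 28 DPI, against 236284 to 243196 TPM in contralateral muscle at 28 DPI. Calls lower numbered 12, 8, 0 and 0 of 12, where 5.92%, 2.01%, 0.168% and 0.212% of all tested genes were called lower, with medians of -1.82, -1.31, -0.41 and -0.30, or -2.41, -2.40, -1.07 and -0.77 after size factors. Against control muscle 12, 6, 2 and 1 were called lower, beside 4.24%, 2.42%, 0.547% and 0.212%. At 7 DPI the called markers ran from Mylpf (-1.03) and Tnni2 (-1.28) to Ckm (-1.72) and Actn3 (-2.33). The part of these genes in the Lmod1 values was not tested. Markers of regenerating fibers had 6, 7, 7 and 8 of 8 called higher, at 7 DPI from Tnnt2 (6.39) and Myh3 (5.67) to Myl4 (4.27) and Actc1 (4.24).

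The actins share nearly all of their protein sequence and much of their coding sequence, so reads may be split between them with error, and likewise for Myh11 and Myh10 with Myh9 and for Myl9 with Myl12a and Myl12b. Acta1 is named here for that reason, after its values had been seen. Acta1 averaged 45928 TPM in contralateral and 18495 TPM in injured no repair muscle at 7 DPI, and Actc1, the cardiac actin that regenerating fibers express, 90.7 and 1539 TPM. Acta2 and Actg2 are thus measured beside far more abundant relatives, of which Acta1 fell (-1.34, limma) and Actc1 rose (4.24) as they rose. Whether reads of these relatives entered the values of Acta2 and Actg2 was not tested.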

How the data were processed

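RNA of whole TA muscle was sequenced, and the authors deposited 1 table of TPM values made with Kallisto at default parameters against a GenBank-annotated rat genome, build 6.0; the Kallisto version is not given in the sources used here. The study tested counts, which are not used here, so TPM was tested instead. Of 16182 entries the last was incomplete and 16181 were used. Of 138 libraries, 9 with contradictory labels stayed without a group. Libraries with fewer than 7000 symbols above 1 TPM were dropped, and libraries of the same muscle were averaged.

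A linear model on log2(TPM + 1) over 31 groups was fitted in limma 3.58.1 (R 4.3.3), with a mean-variance trend and 83 residual degrees of freedom, for 11328 genes with a mean above 1 TPM in at least 1 group, and was tested on simulated data. Intervals are 95% intervals from the t distribution. Ratios to Myh11 were compared by two-sided exact permutation of muscles (scipy 1.17.1), or over 100000 drawn splits where both groups held 10 or more muscles, as with both arms pooled at 7 DPI. Genes of the other lists were named by the 2 highest and 2 lowest called values at 7 DPI against contralateral no repair muscle, and likeness by the 3 highest Pearson correlations over group means; 1 gene that this rule names is not reported here. The members and lists were chosen with earlier results of these data known. Promoters came from RefSeq (GRCr8), and coordinates of the build used by the authors were not used. Same-rat muscles correlated at 0.0722 on average in their deviations from the group means over 36 pairs, against -0.00871 between rats. Alternatives were another pseudocount, no filter, size factors, all libraries, each library alone, averaged control rats, the compared groups alone, the rat as a block and leaving out muscles.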

Additional observations from a re-analysis of the deposited data

Results flagged for a closer look

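Among the 8 genes and the groups of 4 to 10 muscles, 7 of 128 sets (5.47%) held a muscle far from the others by Dixon's criterion, where chance gives about 1 in 20. In injured MMG muscle at 14 DPI, replicate 2 was far above the rest for Tagln, at 193.8 TPM against 110.38 TPM in the nearest muscle, and for Myh11, at 18.64 TPM against 13.63 TPM. In injured no repair muscle at 28 DPI, replicate 1 stood out for Cnn1, at 5.62 TPM against 1.58 TPM, and for Actg2, at 7.8 TPM against 2.88 TPM. Cnn1 was at 12.44 TPM in replicate 4 of injured no repair muscle at 7 DPI, against 6.6 TPM in the next. The other 2 were low values, 13.84 TPM of Myh10 in replicate 4 of injured MMG running muscle at 3 DPI, where the nearest held 17.96 TPM, and 2.42 TPM of Actg2 in replicate 2 of injured no repair running muscle at 14 DPI, where the nearest held 5.64 TPM.

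The 9 libraries without a group entered no comparison, and some exceeded the highest control muscle. For Acta2, 4 of them were above 38.49 TPM, for Tagln 7 were above 34.84 TPM, and for Myh11 4 were above 11.36 TPM. For Cnn1 and Myl9, 8 each were above 0.77 and 29.72 TPM. For Actg2 and Myh10, 4 each were above 1.71 and 7.26 TPM, and for Lmod1 0 were above 30.03 TPM.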

How the results depend on the processing

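With median-of-ratios size factors, calls of members, summed over days, went from 27 to 15 against control, from 24 to 14 against contralateral muscle (14 with size factors and the replicate block), from 25 to 15 for MMG against its contralateral group, from 20 to 12 in running rats and from 3 to 1 between days. A pseudocount of 0.1 TPM gave 5 calls between days. With all libraries kept there was 1 call between days, 5 instead of 0 for contralateral against control and 1 instead of 0 for MMG against no repair. Ratios to Myh11 with an adjusted p under 0.05 went from 6 to 23 with both arms pooled, to 24 with both arms and no pseudocount, and stayed at 6 without a pseudocount in no repair muscle alone. With the rat as a replicate block the counts were 27 against control and 24 against contralateral muscle, and no other call changed.

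Leaving out 1 muscle at a time gave 25 to 29 calls against control, 21 to 25 against contralateral muscle, 24 to 27 for MMG, 19 to 21 in running rats, 2 to 5 between days and 0 to 7 ratios. The 8 muscles of the running no repair group at 3 DPI were not left out in turn (not run). Of 99 member calls, 17 were lost in some such fit and 0 reversed. Size factors kept 55 of the 99 and all libraries 80. The other pseudocount, no filter, separate libraries, the compared groups alone and the block kept all 99, and averaging control rats kept 27 of 27. The contralateral groups of 2 muscles and the read depth of each library, not given in the sources used here, limit these values.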

Other observations

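In 8 libraries of running rats at 28 DPI the title and the other label name opposite sides of the animal, so none was given a group. The 4 labelled as injured and titled as control held 51.1 to 94.1 TPM of Acta2 (median 70.05), 55.7 to 89.1 TPM of Tagln, 11.95 to 23.3 TPM of Myh11 and 9.36 to 14.2 TPM of Lmod1. The 4 labelled as uninjured and titled as injured held 28.7 to 37.3 TPM of Acta2, 27.9 to 36.6 TPM of Tagln, 6.71 to 9.46 TPM of Myh11 and 18.8 to 26.2 TPM of Lmod1. Another library, whose labelled day differs from that of the same rat's other libraries, held 35.5 TPM of Acta2, 42.9 TPM of Tagln and 14.2 TPM of Lmod1.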
